A study of Mus musculus with 6 samples.

Results

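The enzymes described here build and decorate the sugar chains of glycoproteins, glycolipids and proteoglycans. They are glycosyltransferase and carbohydrate sulfotransferase genes, selected by a rule on the gene symbol that was set with earlier results of these data known. The rule covers the Galnt, Mgat, Alg, B3g, B4g, St3gal, St6gal, St8sia, Fut, Chst, Hs2st, Hs3st, Hs6st, Ndst and Ext families. In all, 84 of the 11644 genes in the table belong to them. GENCODE annotates 133 protein-coding mouse genes with such names, and the 49 others are not analysed here. The smallest maximum of any gene over the libraries was 10 reads, so genes that are low in both treatments are absent from these counts. The cells are MLL-ENL/NrasG12D cells, a mouse leukemia line with an MLL-ENL fusion and an activated Nras. They were cultured for 72 h with 5 µM EPZ015666, a small molecule that inhibits the arginine methyltransferase PRMT5, or with its solvent DMSO, and were treated again on day 2. Polyadenylated RNA was sequenced from 3 inhibitor libraries and 3 DMSO libraries of the same line. The labels call the replicates independent and do not say what was repeated, so p-values measure the spread between these 6 libraries, which may be technical.

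Sugar chains are not copied from a template. Their structure follows from which transferases a cell makes, in what amounts, and how they compete for the same acceptor in the endoplasmic reticulum and the Golgi. N-glycans start as a lipid-linked precursor, mucin-type O-glycans start with a GalNAc on serine or threonine, glycosphingolipids grow on ceramide, and glycosaminoglycans grow on a xylose linker and are then sulfated. In myeloid cells these chains carry the ligands of selectins, siglecs and galectins.

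The inhibitor libraries held 11335948 to 15551525 reads assigned to genes and the DMSO libraries 15505127 to 19197912. Values are normalized counts, meaning reads scaled by the size factor of their library. Of 12 myeloid and progenitor markers 11 were measured, of which 6 rose and 3 fell. Ptprc, the pan-leukocyte antigen CD45, averaged 6867 with the inhibitor and 6899.8 in DMSO. Markers of mature myeloid cells were higher: the integrin Itgam averaged 6314 with the inhibitor and 1667 in DMSO, the receptor Csf1r 3912 with the inhibitor and 1235 in DMSO and the Fc receptor Fcgr3 1024 with the inhibitor and 383 in DMSO (limma adjusted p = 5.44e-08, 3.90e-08 and 6.80e-07). Csf3r, Spi1 and the progenitor marker Cd34 (13430.1 with the inhibitor and 8846 in DMSO) rose too. The granule genes Mpo (342 with the inhibitor and 847 in DMSO) and Ctsg (1885 with the inhibitor and 2369 in DMSO) and the factor Cebpa (873 with the inhibitor and 1269 in DMSO) fell (limma adjusted p = 0.0215, 0.0361 and 0.00277). Without DMSO library 1 Mpo did not pass (limma adjusted p = 0.0528), and its ratio of means, inhibitor over DMSO, was 0.621, beside 0.404 with all libraries. Kit averaged 687 with the inhibitor and 831 in DMSO and did not pass. These markers moved beside the enzymes described here, and their part in the results was not tested. The neutrophil elastase gene Elane is not in the table. No erythroid marker of 7 is in the table, and the summed level of the measured T cell, B cell, fibroblast and endothelial markers, 1 of each list, stayed at or below 28.5 normalized counts in each library. The summed megakaryocyte markers, 2 of 5 measured, came to 32.7 to 54.5 with the inhibitor and 9.78 to 17.7 in DMSO. Of 5 mast cell and basophil markers only the basophil gene Mcpt8 was measured, at 6.99 to 14.0 with the inhibitor and 21.8 to 28.5 in DMSO. Epithelial markers, 2 of 4 measured, summed to 62.3 to 81.1 with the inhibitor and 53.0 to 80.7 in DMSO. Part of the megakaryocyte and epithelial markers rose (Itga2b and Epcam) and Mcpt8 fell, and the part of such cells in the results was not tested. Itga2b had 23 reads over the DMSO libraries and 78 over the inhibitor libraries, and Epcam 12 and 32. No single DMSO library reached 10 reads of Epcam, so it is in the table only through the inhibitor libraries and its rise may lean upward. DMSO library 2 stood apart in stress genes and in proteoglycan core protein genes. It held more than 1.5 times the count of both other DMSO libraries for 5 of 18 stress genes. The same held for 4 of 12 proteoglycan core protein genes and for 3 of the 84 members. Trib3, for example, was at 1376 against 126 and 218 in DMSO libraries 1 and 3. That library was the highest of the DMSO libraries for 34 members and the lowest for 28, and without it 18 members rose and 18 fell.

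Of the 84 genes, 18 rose and 20 fell with the inhibitor at an adjusted p under 0.05 in limma, and 46 did not pass. Over all genes 46.5% passed, 23.6% upward and 22.9% downward, and the members' shares of 45.2%, 21.4% and 23.8% lay near these values. The median log2 fold change of the members was 0.04, beside 0.00 for all genes, and the median absolute change was 0.31 for both. A change of at least 2-fold was called for 8 members (9.52%), 6 upward and 2 downward, where 10.2% of all genes had one, 7.16% upward and 3.04% downward. Inhibitor and DMSO libraries did not overlap for 45 members, beside 56% of all genes. Of the 68 members with a mean of at least 100 normalized counts, 34 passed, beside 48.8% of all genes at that level. By each of these counts the enzymes moved about as often as all genes. The counts for glycan types and pathway lists given below stand beside these same shares, and many of those groups are small. In bulk RNA a change in the share of cells that express a gene and a change in RNA per cell cannot be told apart.

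**Figure D1:**
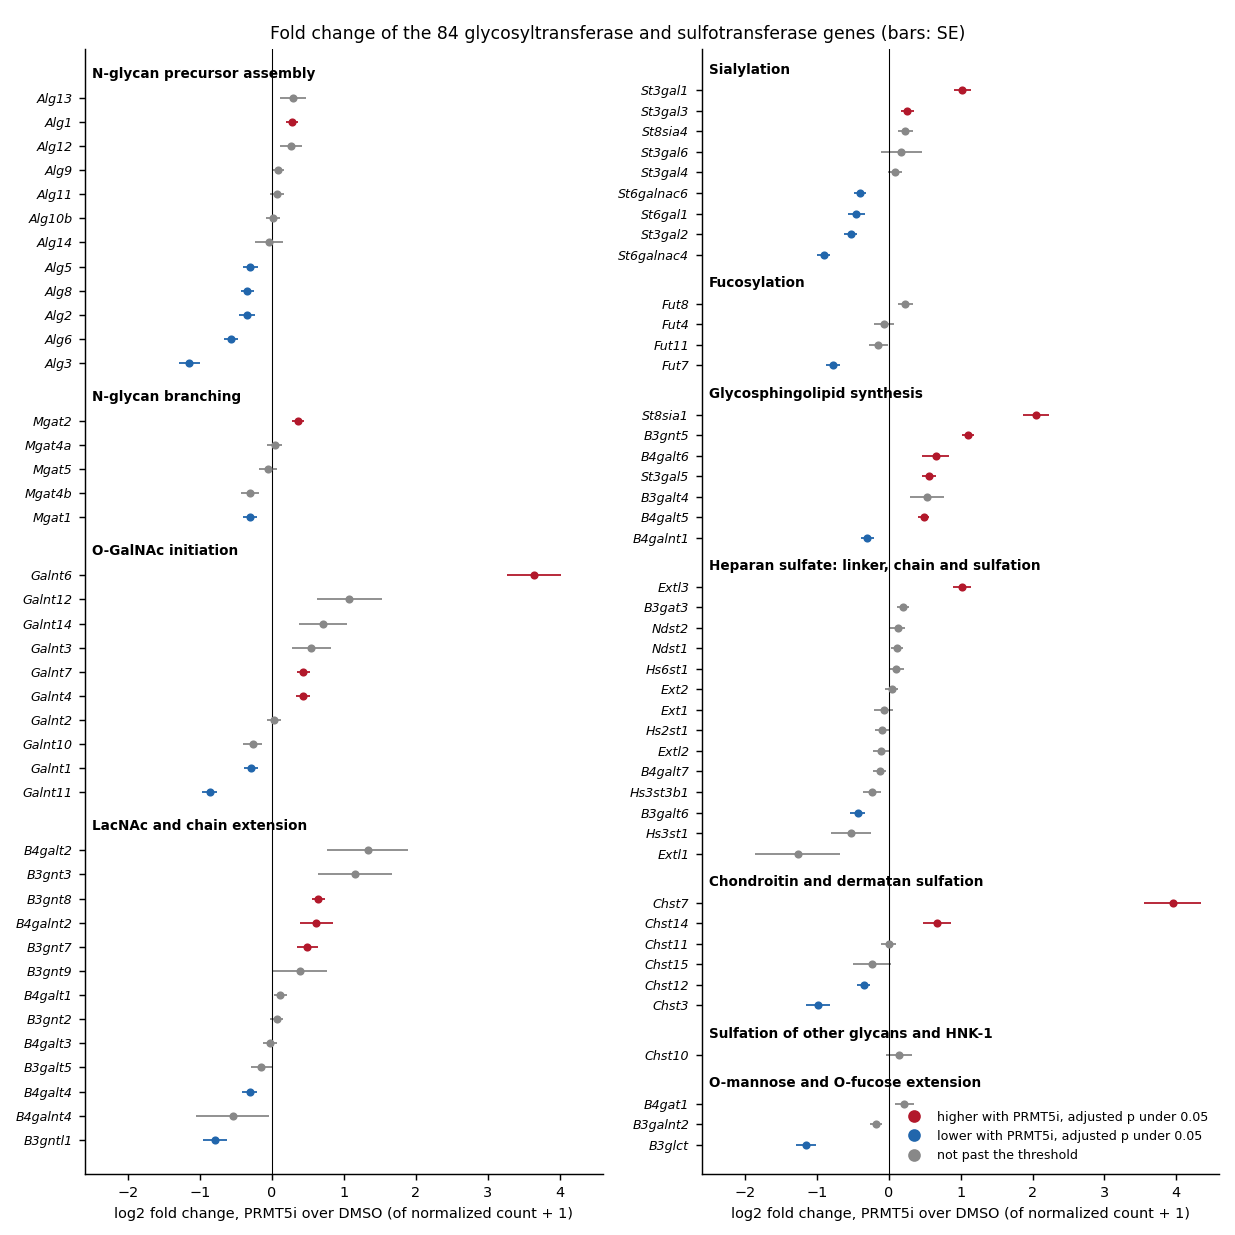
Log2 fold change (inhibitor over DMSO, of the normalized count + 1) of the 84 genes, grouped by the glycan they build, with bars for the SE. Red points rose and blue points fell at an adjusted p under 0.05, and Chst7 and Galnt6 lie farthest to the right, at 3.95 and 3.64.

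**Figure D2:**
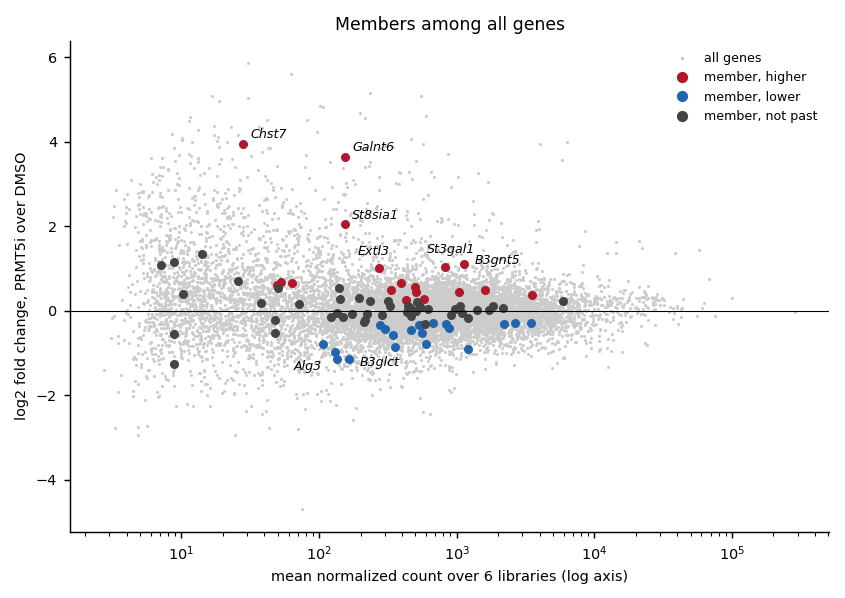
Log2 fold change (inhibitor over DMSO) against the mean normalized count over 6 libraries on a log axis, for all 11644 genes in grey and for the members in colour. The 8 labelled members passed the threshold and changed at least 2-fold, as did 10.2% of all genes. The other members lie among the grey points.

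Of 7 measured enzymes of glycosphingolipid synthesis, 5 rose, B4galnt1 fell and B3galt4 did not pass, with a median log2 fold change of 0.57. Over all genes 23.6% rose and 22.9% fell. St3gal2 and St6galnac6, which also sialylate gangliosides and are counted with the other sialyltransferases, fell (log2 fold changes -0.53 and -0.40, limma adjusted p = 7.62e-04 and 0.00160). The promoter windows of 4 of the 5 that rose are shown because these genes moved together, with those of the 2 members with the largest rises, Galnt6 and Chst7. Each runs 300 bases 5′ to 3′, from 250 before to 50 after a RefSeq start on GRCm38 (the mm10 assembly), and capitals mark GC boxes (GGGCGG, on either strand; adjoining boxes can overlap).
B4galt5 (chr2:167349129-167349428, minus strand): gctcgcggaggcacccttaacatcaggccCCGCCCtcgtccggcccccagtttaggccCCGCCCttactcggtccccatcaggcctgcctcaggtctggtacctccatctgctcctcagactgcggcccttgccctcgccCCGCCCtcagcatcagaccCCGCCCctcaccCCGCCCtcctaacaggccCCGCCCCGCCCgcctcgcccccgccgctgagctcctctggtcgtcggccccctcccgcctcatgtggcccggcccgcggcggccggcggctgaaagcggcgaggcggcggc
St3gal5 (chr6:72097358-72097657, plus strand): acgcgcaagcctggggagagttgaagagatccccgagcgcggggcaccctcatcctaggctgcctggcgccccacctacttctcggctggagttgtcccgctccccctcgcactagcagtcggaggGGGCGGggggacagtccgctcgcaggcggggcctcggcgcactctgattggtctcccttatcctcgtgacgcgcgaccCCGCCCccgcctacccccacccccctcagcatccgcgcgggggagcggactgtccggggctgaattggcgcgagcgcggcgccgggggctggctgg
St8sia1 (chr6:142964403-142964702, minus strand): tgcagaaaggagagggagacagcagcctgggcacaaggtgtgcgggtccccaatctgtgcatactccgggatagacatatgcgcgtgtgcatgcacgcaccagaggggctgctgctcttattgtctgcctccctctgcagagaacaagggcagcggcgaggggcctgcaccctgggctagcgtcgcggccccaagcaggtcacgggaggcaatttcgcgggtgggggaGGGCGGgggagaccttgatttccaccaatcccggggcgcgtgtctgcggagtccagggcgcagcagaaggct
B3gnt5 (chr16:19759984-19760283, plus strand): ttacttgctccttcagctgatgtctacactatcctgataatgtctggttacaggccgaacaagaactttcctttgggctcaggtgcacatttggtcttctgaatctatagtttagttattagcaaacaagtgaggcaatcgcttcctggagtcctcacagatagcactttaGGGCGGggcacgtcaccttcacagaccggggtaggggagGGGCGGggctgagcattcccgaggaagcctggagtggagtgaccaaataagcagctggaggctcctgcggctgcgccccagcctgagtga
Galnt6 (chr15:100729327-100729626, minus strand): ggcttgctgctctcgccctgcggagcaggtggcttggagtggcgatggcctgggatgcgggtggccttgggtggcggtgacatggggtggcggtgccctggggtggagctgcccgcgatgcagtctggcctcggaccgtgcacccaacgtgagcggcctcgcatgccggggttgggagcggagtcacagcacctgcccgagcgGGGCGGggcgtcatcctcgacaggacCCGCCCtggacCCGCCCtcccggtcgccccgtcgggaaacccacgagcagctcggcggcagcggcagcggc
Chst7 (chrX:20059320-20059619, plus strand): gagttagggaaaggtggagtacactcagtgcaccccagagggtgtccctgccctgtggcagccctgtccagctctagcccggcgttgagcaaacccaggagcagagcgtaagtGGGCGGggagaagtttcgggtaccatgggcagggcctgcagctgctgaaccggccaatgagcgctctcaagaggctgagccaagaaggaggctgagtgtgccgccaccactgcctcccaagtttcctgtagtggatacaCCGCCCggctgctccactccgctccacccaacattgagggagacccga

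GC boxes numbered 7 in the B4galt5 window, 3 in that of Galnt6, 2 each in those of St3gal5, B3gnt5 and Chst7, and 1 in that of St8sia1. A GC box occurred in 64.3% of the 84 windows found for 68 members. Its share was 62.5% of the 11168 windows of genes in the table, and 35.7% of all 32851 windows, so the members lay near the other measured genes. The same held for the CCAAT box (CCAAT; 39.3% of member windows and 38.1% of windows of genes in the table), the E-box (CACGTG; 8.33% and 10.1%) and the PU.1 core (GAGGAA; 31.0% and 26.9%), on either strand. These matches describe letters and not bound sites.

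St8sia1 (chromosome 6, 142821545 to 142964452, minus strand) encodes the GD3 synthase, which adds a second sialic acid to the ganglioside GM3. It stood at 202, 271 and 271 normalized counts in the inhibitor libraries, against 47.3, 67.8 and 62.8 in the DMSO libraries. The groups did not overlap, and the gene rose 4.19-fold, with means of 248 ± 39.8 with the inhibitor and 59.3 ± 10.7 in DMSO (SD, n = 3 each; log2 fold change 2.05 ± 0.18, limma adjusted p = 4.63e-06). Its substrate is made by the GM3 synthase St3gal5, which had 583, 566 and 640.3 normalized counts in the inhibitor libraries, against 373, 426 and 409 in the DMSO libraries. Every inhibitor library lay above every DMSO library, and St3gal5 rose 1.48-fold (log2 fold change 0.57, limma adjusted p = 6.07e-04). The lactosylceramide synthases, which add the galactose shared by nearly all of these lipids, rose together. B4galt5 had 1868, 1927 and 1838 normalized counts in the inhibitor libraries, against 1255, 1433 and 1341 in the DMSO libraries (log2 fold change 0.49, limma adjusted p = 4.78e-04). B4galt6, which has the same activity, averaged 77.7 ± 8.13 with the inhibitor and 49.3 ± 7.01 in DMSO and rose (SD, n = 3 each; limma adjusted p = 0.0130).

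B3gnt5 (chromosome 16, 19760208 to 19772753, plus strand), which starts the lacto-series on lactosylceramide, had 1491, 1577 and 1528 normalized counts in the inhibitor libraries, against 759, 655 and 724 in the DMSO libraries. It rose 2.15-fold (log2 fold change 1.11 ± 0.08, limma adjusted p = 1.87e-06), with the smallest adjusted p of the 84 genes. B4galnt1, which makes GM2 and GD2 from GM3 and GD3, went the other way and fell to 3103 ± 178 with the inhibitor, against 3824 ± 314 in DMSO (SD, n = 3 each; limma adjusted p = 0.0149). Its call was lost when inhibitor library 2 or DMSO library 2 was left out (limma adjusted p 0.0537 to 0.0725). Within a library the log2 ratio of St8sia1 to B4galnt1 was -4.02, -3.45 and -3.47 in the inhibitor libraries, against -6.29, -5.92 and -5.79 in the DMSO libraries. Since St8sia1 rose and B4galnt1 fell without overlap, this ratio had to be higher in each inhibitor library. The pair was chosen after the values were seen. B3galt4, the GM1 synthase, had 40.9, 71.3 and 68.9 normalized counts in the inhibitor libraries, against 41.6, 40.4 and 38.3 in the DMSO libraries; inhibitor library 1 lay within the DMSO range and the gene did not pass (limma adjusted p = 0.0806).

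**Figure D3:**
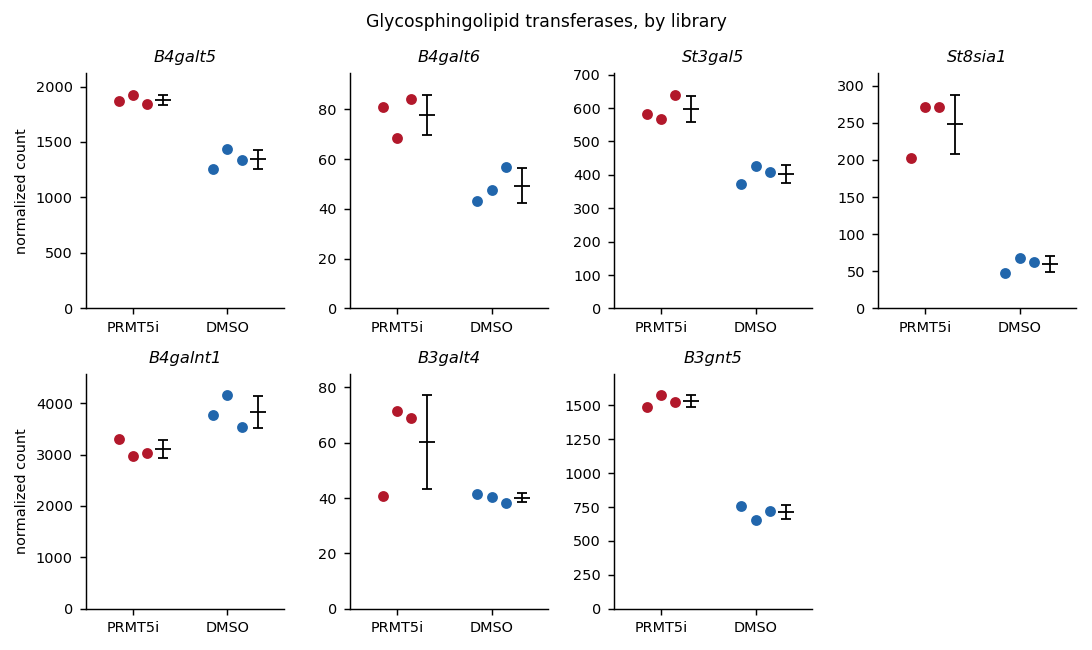
Normalized counts of the 7 measured glycosphingolipid transferases in each inhibitor (red) and DMSO (blue) library, with the mean and SD in black. All inhibitor libraries lie above all DMSO libraries for B4galt5, B4galt6, St3gal5, St8sia1 and B3gnt5, and below them for B4galnt1.

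Around these enzymes, 10 further glycosphingolipid genes were measured. Of these, 5 rose and 2 fell (median log2 fold change 0.31), beside 23.6% and 22.9% of all genes. Gla, the lysosomal alpha-galactosidase, averaged 1184 ± 39.6 with the inhibitor and 546 ± 54.0 in DMSO (SD, n = 3 each; limma adjusted p = 3.42e-06). Gba2, which cleaves glucosylceramide outside the lysosome, averaged 642 with the inhibitor and 425 in DMSO and rose as well (limma adjusted p = 0.00295). The lysosomal beta-galactosidase Glb1 fell (log2 fold change -0.38, limma adjusted p = 0.00342). Ugcg, the glucosylceramide synthase that opens the route, averaged 1307 with the inhibitor and 1144 in DMSO (limma adjusted p = 0.152).

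The other sialyltransferases, which act mainly on glycoproteins and in part also on gangliosides, moved in both directions: of 9 measured, 2 rose, 4 fell and 3 did not pass. St3gal1 (chromosome 15, 67102875 to 67176830, minus strand) caps the O-glycan core 1 with an alpha2,3-linked sialic acid. It had 1136, 1047 and 1117 normalized counts in the inhibitor libraries, against 444, 603 and 589 in the DMSO libraries. The inhibitor libraries lay close together and far above those in DMSO, and St3gal1 rose 2.02-fold (log2 fold change 1.02 ± 0.12, limma adjusted p = 3.30e-05). St6galnac4, which adds a second, alpha2,6-linked sialic acid to that same sialylated core, had 936, 773 and 836 normalized counts in the inhibitor libraries, against 1665, 1522 and 1564 in the DMSO libraries. It fell 1.87-fold (log2 fold change -0.90 ± 0.09, limma adjusted p = 1.37e-05). The log2 ratio of St3gal1 to St6galnac4 was 0.28, 0.44 and 0.42 in the inhibitor libraries, against -1.91, -1.33 and -1.41 in the DMSO libraries. Since St3gal1 rose and St6galnac4 fell without overlap, this ratio had to differ. The pair was chosen after the values were seen.

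St3gal2, which shares acceptors with St3gal1, had 491, 450.3 and 424 normalized counts in the inhibitor libraries, against 686, 621 and 667 in the DMSO libraries and fell 1.44-fold. St6galnac6, an alpha2,6-sialyltransferase of gangliosides and core 1, fell to 760.1 with the inhibitor, against 1003 in DMSO. St6gal1, the main alpha2,6-sialyltransferase of N-glycans, had 371, 435 and 365 normalized counts in the inhibitor libraries, against 483, 628 and 498 in the DMSO libraries and fell as well (limma adjusted p = 0.00931). St3gal3, an alpha2,3-sialyltransferase of lactosamine ends, had a small rise (log2 fold change 0.26, limma adjusted p = 0.0415), which was lost when any 1 of the 6 libraries was left out, and also with edgeR's quasi-likelihood test, DESeq2 and TMM factors (adjusted p 0.0532 to 0.120). St3gal4 (558 with the inhibitor and 528 in DMSO) and St3gal6 (40.1 with the inhibitor and 35.4 in DMSO), which act on the same ends, did not pass (limma adjusted p = 0.489 and 0.638). St8sia4, a polysialyltransferase, averaged 6344 ± 604 with the inhibitor and 5409 ± 619.5 in DMSO (SD, n = 3 each; limma adjusted p = 0.0903).

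Among the polypeptide GalNAc transferases, which start mucin-type O-glycans, 3 of 10 rose, 2 fell and 5 did not pass. Galnt6 (chromosome 15, 100691813 to 100729376, minus strand) had 268, 330.0 and 254 normalized counts in the inhibitor libraries, against 9.78, 42.8 and 23.6 in the DMSO libraries. The lowest inhibitor library was far above the highest DMSO library, which was library 2, and Galnt6 rose 11.2-fold (log2 fold change 3.64 ± 0.38, limma adjusted p = 1.82e-05). Without DMSO library 2 its call held, as it did without each other library (limma adjusted p 2.02e-08 to 5.41e-04). Without that library the ratio of means was 17.0. The DMSO value rests on 89 reads over 3 libraries, beside 734 in the inhibitor libraries. An annotated antisense gene, Galnt6os, overlaps it; reads of both cannot be told apart if the counting ignored strand, and that setting is not given in the sources used here.

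Galnt11, reported to act on the Notch receptor, had 241, 266 and 249.7 normalized counts in the inhibitor libraries, against 497, 481 and 408 in the DMSO libraries and fell 1.83-fold (log2 fold change -0.87 ± 0.11, limma adjusted p = 7.16e-05). Galnt7, which prefers peptides that already carry a GalNAc, averaged 1189 ± 94.0 with the inhibitor and 877 ± 43.3 in DMSO and rose (SD, n = 3 each; limma adjusted p = 0.00167). Galnt4, with a similar preference, averaged 578 ± 47.0 with the inhibitor and 427 ± 5.93 in DMSO (SD, n = 3 each; limma adjusted p = 0.00283). Its exons overlap those of Poc1b on the same strand, which had a log2 fold change of -0.24 (limma adjusted p = 0.0596). Galnt1, the most abundant member of the family per length, fell slightly (2371 with the inhibitor and 2900.1 in DMSO; limma adjusted p = 0.0295), a call lost when inhibitor library 2 or 3 or DMSO library 1 or 2 was left out (limma adjusted p 0.0546 to 0.10). Galnt2, with 1736 with the inhibitor and 1705 in DMSO, did not pass (limma adjusted p = 0.845). Galnt3 stood at 191 normalized counts in DMSO library 2 and at 81.5 and 83.5 in DMSO libraries 1 and 3, with 144 to 180.4 in the inhibitor libraries, and did not pass (limma adjusted p = 0.119). Galnt10, Galnt12 and Galnt14 averaged 191 with the inhibitor and 229.9 in DMSO, 9.88 with the inhibitor and 4.34 in DMSO, and 31.6 with the inhibitor and 20.0 in DMSO, and did not pass (limma adjusted p = 0.112, 0.0688 and 0.104). Galnt12 did not overlap between the groups, on 15 reads over the DMSO libraries and 26 over the inhibitor libraries. No single DMSO library reached 10 reads, so Galnt12 is in the table only through the inhibitor libraries. Its separation may therefore lean upward.

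**Figure D4:**
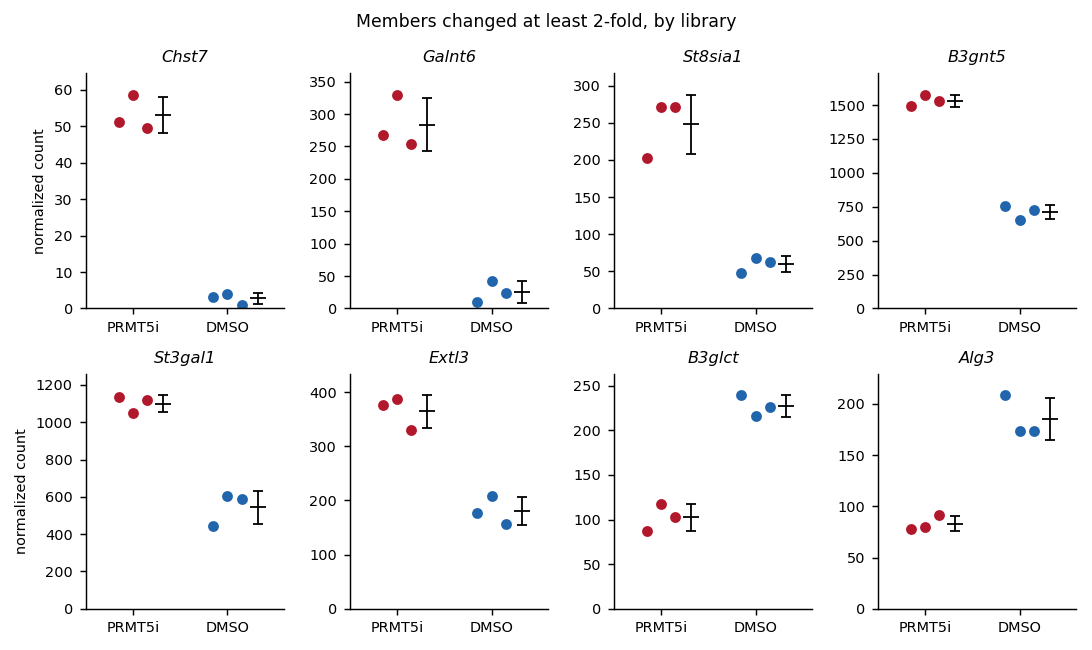
Normalized counts in each inhibitor (red) and DMSO (blue) library of the 8 members changed at least 2-fold, with the mean and SD in black. The groups are apart in each panel, with Chst7, Galnt6, St8sia1, B3gnt5, St3gal1 and Extl3 higher and B3glct and Alg3 lower with the inhibitor.

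The next steps of O-glycan growth were measured through 5 genes outside these families. Of these, 3 rose and none fell (median log2 fold change 0.54), beside 23.6% and 22.9% of all genes. C1galt1c1, the chaperone that the core 1 galactosyltransferase needs, averaged 538 ± 63.0 with the inhibitor and 312 ± 9.66 in DMSO (SD, n = 3 each; limma adjusted p = 1.34e-04). The branching enzymes Gcnt2 (401 with the inhibitor and 279 in DMSO) and Gcnt4 (39.4 with the inhibitor and 19.7 in DMSO) rose (limma adjusted p = 0.00678 and 0.00845). The core 1 synthase C1galt1 and the core 2 enzyme Gcnt1 did not pass, with log2 fold changes of 0.14 and -0.11.

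Of 4 fucosyltransferases, Fut7 fell and 3 did not pass. Fut7 (chromosome 2, 25423267 to 25426374, plus strand) makes the last step of sialyl Lewis x, the sugar by which leukocytes bind selectins. It had 448, 399.9 and 481 normalized counts in the inhibitor libraries, against 770.5, 788 and 722 in the DMSO libraries, with no overlap between the groups, and fell 1.72-fold (log2 fold change -0.78 ± 0.10, limma adjusted p = 6.31e-05). Fut4, the other alpha1,3-fucosyltransferase of leukocytes, averaged 170.0 ± 23.5 with the inhibitor and 177 ± 13.5 in DMSO (SD, n = 3 each; limma adjusted p = 0.707). Fut8, which adds the core fucose of N-glycans, had 319.7, 376 and 323 normalized counts in the inhibitor libraries, against 279.7, 287 and 299 in the DMSO libraries, and although these did not overlap, the gene did not pass (log2 fold change 0.23 ± 0.11, limma adjusted p = 0.0984; ratio of means 1.18). Fut11 averaged 116 with the inhibitor and 128 in DMSO (limma adjusted p = 0.397). Slc35c1, the GDP-fucose transporter of the Golgi, fell to 203 with the inhibitor, against 309 in DMSO (limma adjusted p = 0.00174), while Fpgt, of the fucose salvage pathway, rose 1.92-fold (limma adjusted p = 3.30e-05). Of 8 measured selectins and their scaffolds, 2 rose and 2 fell. Spn, the leukosialin CD43, fell (log2 fold change -0.41, limma adjusted p = 0.0118), a call lost when DMSO library 1 was left out (limma adjusted p = 0.0581). Selplg, the P-selectin ligand that carries this sugar, averaged 3266 with the inhibitor and 3426 in DMSO (limma adjusted p = 0.646).

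Transferases that build lactosamine and extend chains had 3 rises and 2 falls among 13 genes. B3gnt8, which extends branched N-glycans with poly-lactosamine, had 466, 495 and 476 normalized counts in the inhibitor libraries, against 319, 309 and 289.6 in the DMSO libraries and rose 1.57-fold (log2 fold change 0.65 ± 0.09, limma adjusted p = 2.17e-04). Its exons overlap those of Bckdha on the other strand, which fell (log2 fold change -0.91, limma adjusted p = 1.56e-05). B3gntl1, a family member without an established acceptor, had 71.5, 71.3 and 92.5 normalized counts in the inhibitor libraries, against 122, 126 and 162 in the DMSO libraries and fell 1.74-fold (log2 fold change -0.79 ± 0.17, limma adjusted p = 0.00270). It overlaps exons of Tbcd on the other strand, which had a log2 fold change of -0.16 (limma adjusted p = 0.151).

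Changes near the threshold were seen for 3 further genes of this type. B3gnt7, which extends keratan sulfate and related chains, had 394, 396 and 364 normalized counts in the inhibitor libraries, against 273, 343 and 218 in the DMSO libraries, and its rise (limma adjusted p = 0.0170) was lost when inhibitor library 2 or DMSO library 3 was left out (limma adjusted p 0.0668 to 0.0725). B4galnt2, which makes the Sda antigen, averaged 59.7 ± 11.8 with the inhibitor and 38.5 ± 7.14 in DMSO (SD, n = 3 each; limma adjusted p = 0.0424), a rise lost when inhibitor library 1 or 3 or DMSO library 1 or 3 was left out, and also with DESeq2 and TMM factors (adjusted p 0.0509 to 0.145). The galactosyltransferase B4galt4 fell (log2 fold change -0.31, limma adjusted p = 0.0238), a call lost when inhibitor library 2 or 3 or DMSO library 1 or 3 was left out (limma adjusted p 0.0603 to 0.114). The lactosamine-building enzymes B4galt1, B3gnt2 and B4galt3 did not pass: B4galt1 averaged 1924 with the inhibitor and 1776 in DMSO, B3gnt2 2221 with the inhibitor and 2118 in DMSO and B4galt3 432 with the inhibitor and 443 in DMSO (limma adjusted p = 0.288, 0.562 and 0.796). B4galt2 averaged 20.2 with the inhibitor and 8.15 in DMSO, B3gnt9 11.8 with the inhibitor and 8.74 in DMSO, and B4galnt4 7.55 with the inhibitor and 9.98 in DMSO, and none of these passed (limma adjusted p = 0.0708, 0.429 and 0.401). B3gnt3, which extends core 1 O-glycans, had 13.3, 9.79 and 12.9 normalized counts in the inhibitor libraries, against 1.63, 6.46 and 8.84 in the DMSO libraries, which did not overlap, and did not pass (limma adjusted p = 0.0866). No single DMSO library reached 10 reads of B3gnt3, so it is in the table only through the inhibitor libraries and its separation may lean upward. B4galt2 shares exon sequence with Slc6a9 and Ccdc24. B3galt5, a beta1,3-galactosyltransferase, averaged 141 with the inhibitor and 156 in DMSO (limma adjusted p = 0.422).

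Assembly of the N-glycan precursor had 5 falls and 1 rise among 12 Alg genes, all of those annotated, with a median log2 fold change of -0.02. Alg3 (chromosome 16, 20605374 to 20611735, minus strand), the mannosyltransferase that makes the first addition inside the endoplasmic reticulum, had 77.6, 79.7 and 91.5 normalized counts in the inhibitor libraries, against 209, 174 and 174 in the DMSO libraries. It fell 2.23-fold (log2 fold change -1.15 ± 0.14, limma adjusted p = 7.09e-05). Alg6, which adds the first glucose, had 275, 278 and 278 normalized counts in the inhibitor libraries, against 417, 379 and 438 in the DMSO libraries and fell 1.49-fold (log2 fold change -0.57 ± 0.10, limma adjusted p = 7.54e-04). Alg8, which adds the second glucose, fell to 488 ± 24.1 with the inhibitor, against 619 ± 26.2 in DMSO (SD, n = 3 each; limma adjusted p = 0.00803).

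The calls on 3 further genes of this type were lost when single libraries were left out. Alg2, a cytosolic mannosyltransferase, and Alg5, which makes dolichyl-phosphate glucose, fell by 0.35 and 0.30 on the log2 scale (limma adjusted p = 0.0191 and 0.0310). The call on Alg2 was lost when inhibitor library 2 or DMSO library 3 was left out (limma adjusted p 0.0648 to 0.0951), and that on Alg5 when inhibitor library 1 or 2 or DMSO library 1 or 3 was left out (limma adjusted p 0.0539 to 0.10). Alg1, which adds the first mannose, had 617, 619 and 655 normalized counts in the inhibitor libraries, against 491, 542 and 524 in the DMSO libraries, a rise (limma adjusted p = 0.0206) lost when inhibitor library 2 or 3 or DMSO library 1 or 3 was left out (limma adjusted p 0.0532 to 0.0842). Alg1 overlaps exons of Eef2kmt on the other strand, which fell (log2 fold change -1.47, limma adjusted p = 2.84e-06). Alg9, Alg10b, Alg11, Alg12, Alg13 and Alg14 did not pass, with log2 fold changes between -0.04 and 0.30.

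The steps before and after these were also measured. Of 11 genes of dolichol and the first N-glycan steps, 4 fell and 2 rose (median log2 fold change -0.15). They included Dpagt1, the target of tunicamycin, and Dhdds, a dolichol synthase subunit, which averaged 409 with the inhibitor and 556 in DMSO, and 621 with the inhibitor and 833 in DMSO (limma adjusted p = 0.00258 and 0.00245). Srd5a3, of dolichol reduction, fell and Dolpp1, of dolichol recycling, rose (log2 fold changes -0.38 and 0.41, limma adjusted p = 0.0164 and 0.00304); the call on Srd5a3 was lost when DMSO library 1 was left out (limma adjusted p = 0.0640). In the oligosaccharyltransferase, which transfers the finished precursor to protein, Tusc3 and Ost4 rose (limma adjusted p = 0.00389 and 0.0113) and 10 of 12 genes did not pass. Of 19 trimming and quality-control genes, 3 rose and 5 fell. Mogs, the glucosidase that makes the first cut, fell 1.96-fold (log2 fold change -0.97 ± 0.09, limma adjusted p = 6.23e-06). Edem1, which directs misfolded glycoproteins to degradation, rose 2.11-fold (log2 fold change 1.07 ± 0.09, limma adjusted p = 4.56e-06). The cargo receptor Lman1 and the mannosidase Man1a2 fell (log2 fold changes -0.47 and -0.49, limma adjusted p = 5.64e-04 and 9.70e-04).

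The branching enzymes of complex N-glycans had small and opposite changes. Mgat2, which starts the second antenna, had 4060.4, 4181 and 3731 normalized counts in the inhibitor libraries, against 3228, 3168 and 2889 in the DMSO libraries and rose 1.29-fold (log2 fold change 0.37 ± 0.08, limma adjusted p = 0.00381). Mgat1, which opens the way to hybrid and complex chains, had 2045, 2016 and 1827 normalized counts in the inhibitor libraries, against 2696, 2155 and 2469 in the DMSO libraries and fell 1.24-fold (log2 fold change -0.31 ± 0.10, limma adjusted p = 0.0192); the call was lost when inhibitor library 3 or DMSO library 1 or 3 was left out (limma adjusted p 0.0585 to 0.0914). Mgat4a, Mgat4b and Mgat5, which add further branches, did not pass (limma adjusted p = 0.810, 0.0627 and 0.707). Mgat4b had 534, 496 and 552 normalized counts in the inhibitor libraries, against 532, 765 and 678 in the DMSO libraries.

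Sulfotransferases of chondroitin and dermatan sulfate moved in both directions. Of 6 measured, 2 rose, 2 fell and 2 did not pass. Chst7 (chromosome X, 20059560 to 20097521, plus strand), a chondroitin 6-O-sulfotransferase, had 51.1, 58.7 and 49.5 normalized counts in the inhibitor libraries, against 3.26, 4.04 and 0.982 in the DMSO libraries. It rose 19.2-fold (log2 fold change 3.95 ± 0.40, limma adjusted p = 1.43e-05). The DMSO level rests on 10 reads over 3 libraries, beside 138 in the inhibitor libraries. No single DMSO library reached 10 reads, so Chst7 is in the table only through the inhibitor libraries. The size of its rise is uncertain. Chst3, the other chondroitin 6-O-sulfotransferase, had 100.1, 74.1 and 89.3 normalized counts in the inhibitor libraries, against 144, 189 and 189 in the DMSO libraries and fell 1.98-fold (log2 fold change -0.98 ± 0.17, limma adjusted p = 5.69e-04). The 4-O-sulfotransferase Chst12 fell (log2 fold change -0.35, limma adjusted p = 0.00999), while Chst11, with the same activity, averaged 507 with the inhibitor and 506 in DMSO (limma adjusted p = 0.990). Chst14, which sulfates dermatan, averaged 65.5 ± 4.57 with the inhibitor and 41.0 ± 7.06 in DMSO and rose (SD, n = 3 each; limma adjusted p = 0.0148); this was lost when inhibitor library 2 or DMSO library 3 was left out, and also with DESeq2 (adjusted p 0.0512 to 0.0585). Chst15 did not pass (limma adjusted p = 0.495).

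Of 14 measured heparan sulfate enzymes, Extl3 rose, B3galt6 fell and 12 did not pass, where 46.5% of all genes passed. Extl3 (chromosome 14, 65052060 to 65149855, minus strand), which adds the first GlcNAc and so starts the heparan sulfate chain, had 376, 387 and 330.4 normalized counts in the inhibitor libraries, against 176, 208 and 157 in the DMSO libraries. It rose 2.02-fold (log2 fold change 1.02 ± 0.13, limma adjusted p = 7.65e-05). B3galt6, which adds the second galactose of the linker shared by heparan and chondroitin chains, had 248, 263 and 262 normalized counts in the inhibitor libraries, against 372, 346 and 328 in the DMSO libraries and fell 1.35-fold (log2 fold change -0.43 ± 0.10, limma adjusted p = 0.00466). The chain polymerases Ext1 (217 with the inhibitor and 227 in DMSO) and Ext2 (989 with the inhibitor and 963 in DMSO) did not pass (limma adjusted p = 0.683 and 0.749). Nor did the sulfotransferases Ndst1, Ndst2, Hs2st1, Hs6st1, Hs3st1 and Hs3st3b1, with log2 fold changes between -0.53 and 0.12. Extl1 stood at 29.1 normalized counts in DMSO library 2, against 4.89 and 7.85 in DMSO libraries 1 and 3, and averaged 3.85 ± 0.687 in the inhibitor libraries (SD, n = 3). The linker enzymes B3gat3 (553 with the inhibitor and 481 in DMSO) and B4galt7 (444 with the inhibitor and 485 in DMSO) and the chain enzyme Extl2 (276 with the inhibitor and 298 in DMSO) did not pass (limma adjusted p = 0.0805, 0.277 and 0.449). B3gat3, Hs3st3b1 and Extl1 did not overlap between the groups although they missed the threshold. The inhibitor libraries held 10 reads of Extl1 together, so it is in the table only through DMSO and its separation may lean downward.

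Outside these families, 22 further glycosaminoglycan enzymes were measured, of which 6 rose and 5 fell. Sulf2, which removes 6-O-sulfates from heparan sulfate outside the cell, averaged 196 ± 1.92 with the inhibitor and 5.96 ± 1.20 in DMSO and rose (SD, n = 3 each; limma adjusted p = 3.84e-08), on 21 reads in DMSO. No single DMSO library reached 10 reads, so Sulf2 is in the table only through the inhibitor libraries. Dse, the epimerase that makes dermatan sulfate, rose 2.57-fold (log2 fold change 1.37 ± 0.13, limma adjusted p = 8.97e-06). The lysosomal sulfatases Arsb and Sgsh fell 2.35-fold and 1.95-fold (limma adjusted p = 5.90e-06 and 2.41e-05).

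B3glct (chromosome 5, 149678230 to 149762599, plus strand), which adds glucose to O-fucose on thrombospondin repeats, had 86.8, 117 and 103 normalized counts in the inhibitor libraries, against 239.7, 216 and 226 in the DMSO libraries and fell 2.21-fold (log2 fold change -1.15 ± 0.14, limma adjusted p = 6.39e-05). B3galnt2, of the O-mannose chains of dystroglycan, had 1175, 1189 and 1031 normalized counts in the inhibitor libraries, against 1305, 1253 and 1268 in the DMSO libraries. These did not overlap, but the gene did not pass (log2 fold change -0.18 ± 0.08, limma adjusted p = 0.106; ratio of means 0.887). B4gat1, of the same chains, averaged 254 with the inhibitor and 217 in DMSO (limma adjusted p = 0.193). Of 16 other O-fucose, O-mannose and O-GlcNAc genes, 6 fell and 2 rose (median log2 fold change -0.13), beside 22.9% and 23.6% of all genes. Pomt1, which starts O-mannose chains, fell 2.81-fold (log2 fold change -1.49 ± 0.12, limma adjusted p = 3.01e-06). Pofut1, which puts O-fucose on Notch, and Mfng, which extends it, fell 1.62-fold and 1.90-fold (limma adjusted p = 6.28e-05 and 1.89e-05). Eogt, which places GlcNAc on extracellular EGF repeats, rose 3.28-fold (limma adjusted p = 3.82e-05). Chst10, of the HNK-1 epitope, had 81.7, 61.5 and 81.8 normalized counts in the inhibitor libraries, against 60.3, 67.8 and 73.6 in the DMSO libraries and did not pass (log2 fold change 0.15 ± 0.18, limma adjusted p = 0.531; ratio of means 1.12); it is the 1 measured gene of 9 in the group that sulfates other glycans.

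Families whose members share an activity were compared by normalized count per kilobase of exon, which allows levels of different genes to be set side by side. Galnt6 made up 5.38% ± 0.657 with the inhibitor and 0.499% ± 0.317 in DMSO of the summed GalNAc transferase level (SD, n = 3 each), while Galnt1 made up 31.4% ± 1.28 with the inhibitor and 39.8% ± 0.377 in DMSO. The summed level was 1364 ± 118 normalized counts per kilobase with the inhibitor and 1319 ± 78.9 in DMSO (SD, n = 3 each), so the totals differed by less than their spread. Among 5 alpha2,3-sialyltransferases of glycoproteins, the share of St3gal1 was 26.1% ± 0.558 with the inhibitor and 14.9% ± 2.61 in DMSO and that of St3gal2 14.7% ± 0.892 with the inhibitor and 24.3% ± 0.725 in DMSO. Chst7 made up 64.0% ± 5.28 with the inhibitor and 4.55% ± 2.65 in DMSO of the 2 chondroitin 6-O-sulfotransferases, and Chst3 the rest. Their summed level was 37.6 ± 1.25 normalized counts per kilobase with the inhibitor and 28.1 ± 3.85 in DMSO (SD, n = 3 each). The DMSO share of Chst7 rests on 10 reads over 3 libraries. For the shares of Galnt6, Galnt1, St3gal1, St3gal2 and Chst7, the inhibitor and DMSO libraries did not overlap. These shares use the same counts as the changes of the single genes, so they are no separate evidence. An exact permutation test of 3 against 3 libraries cannot go below p = 0.1 and was not used.

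**Figure D5:**
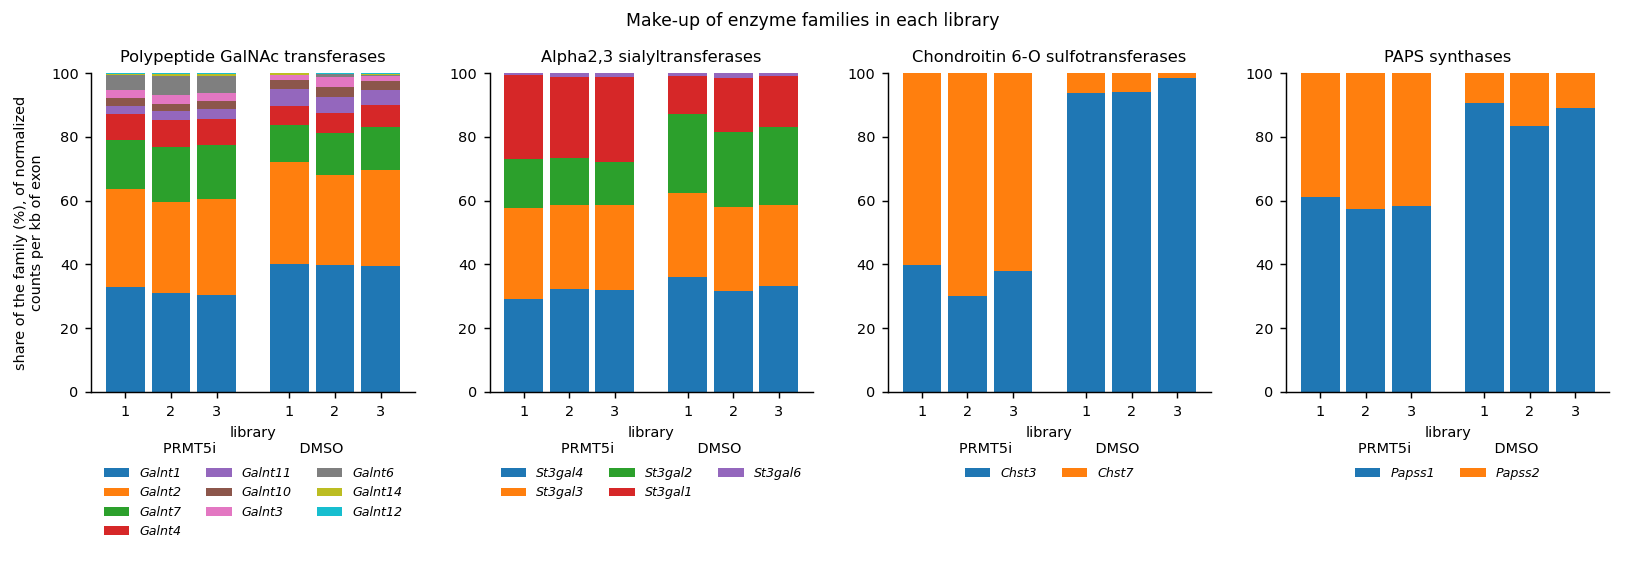
Share of each enzyme in the summed level of its family (percent of normalized counts per kilobase of exon) in 3 inhibitor and 3 DMSO libraries. Galnt6, St3gal1, Chst7 and Papss2 take a larger share in each inhibitor library than in any DMSO library.

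Sulfotransferases draw on the sulfate donor PAPS, which a pair of synthases makes. Papss2 had 323, 302 and 275 normalized counts in the inhibitor libraries, against 77.5, 137 and 96.2 in the DMSO libraries and rose 2.90-fold (log2 fold change 1.56 ± 0.18, limma adjusted p = 4.49e-05). Papss1 averaged 356 ± 54.3 with the inhibitor and 607 ± 38.2 in DMSO and fell (SD, n = 3 each; limma adjusted p = 2.52e-04). Per kilobase Papss2 made up 41.0% ± 1.95 with the inhibitor and 12.3% ± 3.85 in DMSO of both (SD, n = 3 each). Of 17 genes of PAPS synthesis and of nucleotide sugar transport, 4 rose and 4 fell; Slc35d1, a transporter of UDP-sugars, rose (limma adjusted p = 0.00353). Of 27 genes of nucleotide sugar metabolism, 11 rose and 5 fell (median log2 fold change 0.11), beside 23.6% and 22.9% of all genes. The rises included Gfpt1, the first enzyme of the hexosamine pathway (860.1 with the inhibitor and 511 in DMSO), and Fpgt (limma adjusted p = 1.07e-04 and 3.30e-05). The falls included Galk1, the galactokinase (692 with the inhibitor and 1216 in DMSO), Amdhd2, of GlcNAc catabolism (324 with the inhibitor and 614 in DMSO), and Uap1l1 (826 with the inhibitor and 1324 in DMSO), with limma adjusted p of 2.33e-05, 4.70e-05 and 7.84e-05.

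Per kilobase of exon, the highest member was Mgat2 in both treatments, at 1527 with the inhibitor and 1184 in DMSO, followed by B4galnt1 at 898 with the inhibitor and 1107 in DMSO. Mgat1 and B3gnt2, at 516 ± 57.5 and 507 ± 29.0 per kilobase in DMSO (SD, n = 3 each), were neighbours that did not differ beyond their spread. Fut7 was in place 20 of 84 with the inhibitor and in place 8 in DMSO, at 188 with the inhibitor and 323 in DMSO per kilobase.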

How the data were processed

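Polyadenylated RNA went into strand-preserving libraries, per the labels. Tools listed in the submitters' processing notes, without roles, are TopHat2 2.0.10, HTSeq 0.6.0, DESeq 1.16.0, CASAVA 1.8.2 and the mm10 build. Not given in the sources used here are annotation, strand setting and multiple mapping. The authors deposited 1 table of a normalized signal, in which counts per gene were scaled by library size factors. All values (100%) were whole multiples of 1 step per library, within 1e-06, and whole reads were recovered. Groups and replicate numbers came from the titles.

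A two-sided limma-trend fit (limma 3.58.1 in R 4.3.3) of log2(normalized count + 1) covered all 11644 genes, with Benjamini-Hochberg adjustment over all genes, a threshold of 0.05 and 4 residual degrees of freedom. The + 1 understates changes of low genes. On the recovered reads edgeR 4.0.16 called 5412 genes, beside 5418 with limma; DESeq2 1.42.0 was another alternative. Folds are ratios of group means. The fits were tested on simulated data. The members, glycan types and pathway lists were chosen with earlier results of these data known. Any member could be named; members changed at least 2-fold and the 2 with the smallest adjusted p of each type are given in full, and from each pathway list up to 4 called genes, of which some are not reported here. Other genes of the lists, the stress gene Trib3 and the genes sharing exons with members were named after their values were seen. Lengths and coordinates come from GENCODE mouse release 21 (mm10), matched by symbol for all 84 members, and promoters from RefSeq. Of the 84, 31 share exon sequence with another annotated gene, 11 of them with a gene of the table, and these are less certain.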

Additional observations from a re-analysis of the deposited data

How the results depend on the processing

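Of the 38 calls among the members, 27 were kept under every alternative that tested them, other than the 2-fold minimum, and no called member changed direction; 11 were lost without at least 1 library. Members called numbered 38 with edgeR (37 of them the same genes), 35 with DESeq2 and 36 with TMM factors, and 38 at pseudocounts of 0.5 and 5. Without 1 library, 29 to 38 members were called, of 4145 to 5346 genes in all.

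Requiring a 2-fold change left 834 of all genes higher and 354 lower, 6 members higher and 2 lower. By type it left 0 higher and 1 lower for N-glycan precursors, 0 and 0 for branching, 1 and 0 for O-GalNAc initiation, 0 and 0 for chain extension, 1 and 0 for sialylation, 0 lower for fucosylation, 2 and 0 for glycosphingolipids, 0 lower for heparan sulfate, and 1 and 0 for chondroitin. Sialylation had 1 higher with edgeR, DESeq2 or TMM factors, chondroitin 1 higher with DESeq2 and 0 higher at a mean of at least 100 normalized counts, and branching 2 lower with edgeR.

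Without 1 library, counts ranged as follows. For all genes 2078 to 2751 were higher and 2067 to 2598 lower, and for members 14 to 19 and 15 to 19. N-glycan precursors had 0 to 2 higher and 3 to 5 lower, and branching 0 to 1 lower. O-GalNAc initiation had 1 to 2 lower, chain extension 1 to 2 lower, sialylation 1 to 2 higher, glycosphingolipids 0 to 1 lower, heparan sulfate 1 to 2 lower and chondroitin 1 to 2 higher. Fits without 1 library had fewer samples, and the fit at the higher minimum had fewer genes. The cause of the changed counts was not tested.

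With the replicate number as a block, 5932 genes and 41 members were called, and branching had 2 lower. The deviations of same-numbered libraries correlated at 0.17, 0.05 and 0.21 across genes. Each library correlated best with its own number, a hint from the data and not from the design, and since 1 pair lay under 0.1 the numbers were not taken to pair the samples. Depth limits the low members: 6 averaged under 10 normalized counts in DMSO, and intervals from these reads would cover counting error only.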

Other observations

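Carriers and readers of these chains were measured as well. Of 12 proteoglycan core protein genes in the table, 8 rose and none fell (median log2 fold change 0.96). A further 14 listed genes were not in the table. Over all genes 23.6% rose and 22.9% fell. Sdc1, 1 of those that rose, had 17 reads over the DMSO libraries and 154 over the inhibitor libraries. It reached 10 reads in a library only with the inhibitor, so the count may lean upward. The syndecans Sdc4 and Sdc3, which carry heparan sulfate, averaged 1054 ± 92.6 with the inhibitor and 187 ± 141 in DMSO, and 179 ± 6.62 with the inhibitor and 40.4 ± 14.6 in DMSO (SD, n = 3 each; limma adjusted p = 8.08e-05 and 1.42e-05). In DMSO library 2 Sdc4 stood at 349.5, against 99.5 and 111 in DMSO libraries 1 and 3, and without that library its call held, with a ratio of means of 10.0, beside 5.64 with all libraries. Without DMSO library 2, 7 of the 12 rose and 1 fell. The hyaluronan receptor Cd44 rose 1.91-fold and Cd74, the invariant chain, 4.04-fold (limma adjusted p = 4.21e-06 and 4.10e-06).

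Of 9 sialidase and siglec genes, 3 rose and 2 fell, where 23.6% of all genes rose and 22.9% fell. The lysosomal sialidase Neu1, which removes sialic acid, rose 2.81-fold, with 1191, 1326 and 1508 normalized counts in the inhibitor libraries, against 429, 536 and 468 in the DMSO libraries (log2 fold change 1.49 ± 0.11, limma adjusted p = 1.58e-06). The sialic acid-binding lectins Siglec1 and Cd33 rose 5.72-fold and 1.57-fold, and Siglech fell 1.59-fold (limma adjusted p = 6.07e-05, 0.00367 and 0.00208). Selp, P-selectin, and Cd34, a sialomucin, rose 5.92-fold and 1.52-fold (limma adjusted p = 3.11e-04 and 4.87e-04). Selp rests on 22 reads over the DMSO libraries and 95 over the inhibitor libraries, and Siglec1 on 42 and 182. The sizes of these 2 rises are uncertain. In the conserved oligomeric Golgi complex, which keeps transferases in place, 4 of 8 genes rose and 1 fell, with small changes; without DMSO library 2, 1 rose and 1 fell. Cog3, Cog1 and Cog4 rose and Cog7 fell (limma adjusted p = 0.0263, 0.0319, 0.0436 and 0.0256). The call on Cog3 was lost when inhibitor library 2 or 3 or DMSO library 1 or 3 was left out (limma adjusted p 0.0652 to 0.0937). That on Cog1 was lost when inhibitor library 1 or 3 or DMSO library 1, 2 or 3 was left out (limma adjusted p 0.0546 to 0.113). That on Cog4 was lost when inhibitor library 1, 2 or 3 or DMSO library 2 or 3 was left out, and also with edgeR's quasi-likelihood test, DESeq2 and TMM factors (adjusted p 0.0579 to 0.167). That on Cog7 was lost when inhibitor library 3 or DMSO library 1 was left out (limma adjusted p 0.0825 to 0.0940). Of 18 genes of the endoplasmic reticulum and integrated stress responses, 5 rose and none fell, where 23.6% of all genes rose and 22.9% fell. Without DMSO library 2, 7 rose and 0 fell, beside 2751 and 2595 of all 11644 genes. That library stood far above DMSO libraries 1 and 3 in Ddit3 (1378 against 171 and 237 normalized counts), Nupr1 (249 against 37.5 and 44.2), Chac1 (682 against 294 and 320.1) and Sesn2 (965 against 576 and 588). The chaperone Hspa5, Manf and Creld2 rose 1.40-fold, 1.42-fold and 1.44-fold (limma adjusted p = 0.00412, 2.71e-04 and 3.82e-04). Sesn2 averaged 1117 ± 43.7 with the inhibitor and 709.7 ± 222 in DMSO (SD, n = 3 each; limma adjusted p = 0.00426).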
